A study of Mus musculus with 21 samples.

Results

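RPA-coated DNA was compared after 9 h and after 18 h of combined ATR inhibition and aphidicolin in mouse embryonic fibroblasts (MEFs), using all peaks of the authors' list for each time. The 2 lists held 392 of the 683 peaks in the 6 treatment lists of the series, 65 at 9 h and 327 at 18 h. Peaks of the 2 times were paired where they shared at least 1 bp, and all coordinates are on mm10. The question was where RPA had gathered early, which sites were listed only later, and how the edges, the summit and the rank of a shared site differed between the times.

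The cells were passage-immortalized MEFs of the genotype ATR+/-, so every treatment, DMSO included, was given to cells heterozygous for ATR. Both groups received 1 µM of the ATR-45 inhibitor (ATRi) and 0.2 µM aphidicolin (APH). The 9 h group had 2 ChIP libraries and 1 input library, and the 18 h group had 3 ChIP libraries and 2 inputs. Anti-RPA32 antibody came from 2 lots at 9 h and 3 lots at 18 h. Further lists used for comparison came from 18 h of DMSO, of 0.2 µM aphidicolin, of 1 µM ATRi, and of 1 µM ATRi in MEFs with TIM knockdown (ATRi+shTIM). A DMSO group at 9 h is not among the samples used here. Whether the libraries came from separate cultures is not stated in the labels.

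RPA is the trimeric complex that coats single-stranded DNA, and RPA32 is its middle subunit. When a replication fork stalls, the helicase can run ahead of the polymerase, and the exposed strand is covered by RPA. ATR is the checkpoint kinase recruited to RPA-coated DNA, where it stabilises forks and restrains new origins. Aphidicolin slows the replicative polymerases, and Timeless (TIM) belongs to the complex that keeps helicase and polymerase together. RPA is also loaded on the strand left when a broken DNA end is resected.

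All libraries of a treatment had been pooled into 1 list, so each time gave 1 value per site and spread over replicates is unknown. Read depth per library was unknown. The lowest −log10 p of a listed peak was 34 at 9 h and 21.7 at 18 h, so a site missing from the 9 h list may have had signal below its limit. Time, depth, the number of libraries and the limit of each list cannot be told apart in these files. Fold enrichment of ChIP over input is the value of the authors' peak caller, and folds are read within 1 list only. Intervals cover counting error over peaks, and peaks are not replicates of a treatment.

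Sequence was at hand only for windows from 250 bases before to 50 bases after RefSeq gene starts (GRCm38.p6), which cover few of the sites. Of 32851 such windows, 0 were touched by a 9 h peak and 9, of 8 genes, by 8 peaks of the 18 h list, 6 of which were listed at 18 h only. The windows below are shown because each touches an 18 h peak of a different kind described later, all given 5′ to 3′ on the strand of the gene. Gm40237 (chr4:118547156-118547455, plus strand) touches an 18 h-only peak of 223 bp and 7.67-fold that stands near a shared locus, and its capitals mark 1 stretch of 88 bases that recurs along the window. Polg (chr7:79466224-79466523, minus strand) touches an 18 h-only peak over a tRNA gene, and its capitals mark the B box letters read on the other strand. Gp9 (chr6:87777820-87778119, plus strand) lies wholly in the stretch by which a shared peak was longer at 18 h and has no capitals.
Gm40237: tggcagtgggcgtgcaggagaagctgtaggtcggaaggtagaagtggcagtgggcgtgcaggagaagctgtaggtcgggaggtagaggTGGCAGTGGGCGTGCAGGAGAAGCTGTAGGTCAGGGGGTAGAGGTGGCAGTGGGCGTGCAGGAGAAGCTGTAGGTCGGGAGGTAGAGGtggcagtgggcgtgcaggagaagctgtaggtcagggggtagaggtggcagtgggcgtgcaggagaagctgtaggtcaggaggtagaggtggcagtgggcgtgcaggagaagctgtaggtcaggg
Polg: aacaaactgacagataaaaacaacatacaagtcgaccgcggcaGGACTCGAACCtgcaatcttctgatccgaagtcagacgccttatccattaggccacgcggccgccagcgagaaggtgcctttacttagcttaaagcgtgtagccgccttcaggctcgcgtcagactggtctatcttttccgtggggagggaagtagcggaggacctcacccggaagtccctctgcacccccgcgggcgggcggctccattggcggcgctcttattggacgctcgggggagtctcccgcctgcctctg
Gp9: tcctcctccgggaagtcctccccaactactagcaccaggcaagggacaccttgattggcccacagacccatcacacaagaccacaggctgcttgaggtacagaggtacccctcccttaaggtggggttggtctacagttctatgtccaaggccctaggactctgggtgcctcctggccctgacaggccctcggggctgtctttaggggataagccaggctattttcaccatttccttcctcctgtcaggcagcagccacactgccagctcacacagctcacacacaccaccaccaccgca

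Shifted by 88 bases, the Gm40237 window matched itself at 97.6% of positions, and shifted by 44 bases at 96.1%. A best self-match of at least 80% occurred in 0.0548% of all windows. The B box, which tRNA genes and other RNA polymerase III genes carry inside the transcribed part, was searched as GGTTCGA followed by any 2 bases and CC, and was found on either strand in 0.122% of all windows and in 1 touched window, that of Polg. A G-run motif, 4 runs of at least 3 G with 1 to 7 bases between them on either strand, was in 18.6% of all windows and in 3 of the 9 touched. These 3 include overlapping windows of the same predicted gene, touched by the same peak, so they are not independent. Tandem CAGAGG in 4 or more copies was in 0.0183% of windows, and runs of 12 or more CA, GA or TA in 0.107%, 0.0396% and 0.00913%, with 0 touched windows each. All motifs were searched on both strands, a stretch matching more than 1 motif was counted under each, and a match is a description of letters only. The self-match measure and the B box were chosen after seeing the data.

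The 9 h sites were few, mostly narrow and strongly enriched within their list. Their folds ran from 4.19 to 48.4 with a median of 17.8, and their widths from 97 to 3554 bp with a median of 199 bp. The strongest lay 9713 bp from Vmn1r66, a vomeronasal receptor gene (chromosome 7, 10285004 to 10285140, 48.4-fold). It was followed by a peak in Cldn18, a tight junction gene (chromosome 9, 99705772 to 99705924, 41.4-fold), and one 62233 bp from Spon1, which encodes a secreted matrix protein (chromosome 7, 113703688 to 113703839, 40.9-fold). These 3 were 137, 153 and 152 bp wide. The next 3 were wide, at 2183 bp near Klf15 and 2311 bp near Gata4, both transcription factor genes, and 3554 bp near Gdf3, a TGF-beta family ligand. Narrow peaks also stood in Shisa6 (33.1-fold), in a predicted gene on chromosome 4 (31.9-fold) and in Acaca, the gene of acetyl-CoA carboxylase (31.2-fold). In all, 17 of the 65 were wider than 1 kb, and 15 had their summit in a protein-coding gene.

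Nearly every early site was found again at 18 h. Of the 65 peaks, 64 overlapped an 18 h peak (98.5%, exact 95% interval 91.7 to 99.96%). The exception lay on chromosome 11 from 58628616 to 58628832, 2680 bp from the olfactory receptor gene Olfr323, with 12.3-fold enrichment and a −log10 p of 71.8. It was listed in ATRi+shTIM and in none of the DMSO, APH and ATRi lists. Held to 18 h peaks with a −log10 p at or above the lowest of the 9 h list, the share was 87.7%. Seen from 18 h, 65 of 327 peaks overlapped a 9 h peak (19.9%, 95% interval 15.7 to 24.6%). They formed 64 shared loci, 63 with 1 peak at each time and 1, near Zfp825, with 1 peak at 9 h and 2 at 18 h.

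At the shared loci most edges stood where they had been, and the rest had moved outward. Of 128 edges, 72 differed by at most 10 bp between the times and 92 by at most 20 bp. Outward shifts of at least 100 bp were seen at 22 edges, 17.2% of all, and 11 of these were at least 1000 bp. Inward shifts of that size were seen at 0 edges, and the largest inward shift was 17 bp (−17 on the outward scale). The 3 edges nearest below the 100 bp limit had moved 78, 82 and 94 bp and the 3 nearest above it 117, 160 and 210 bp. The limit was chosen after seeing the data.

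**Figure D1:**
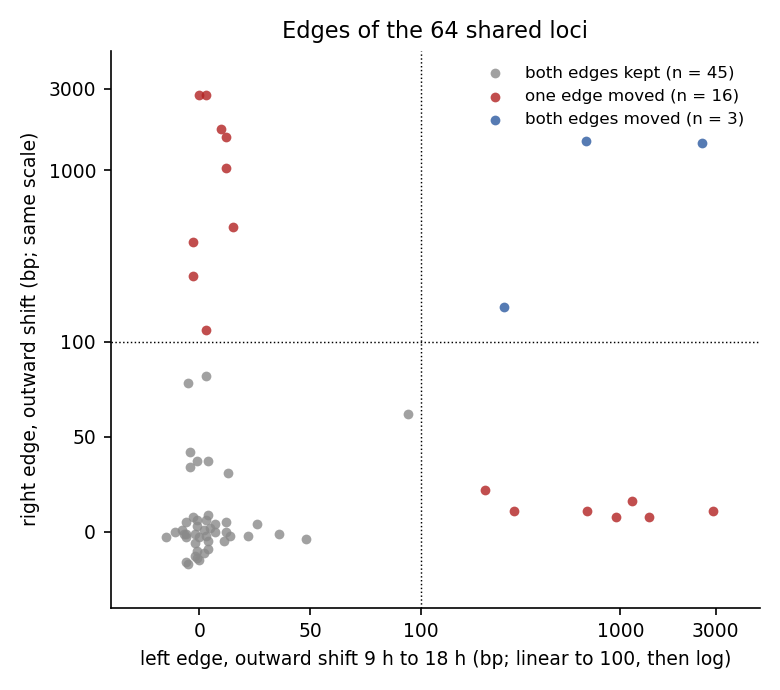
Outward shift of the left edge (horizontal axis, bp) and of the right edge (vertical axis, bp) from 9 h to 18 h, 1 point per shared locus, on axes linear to 100 bp and logarithmic beyond. Grey points have both edges kept (45), red points 1 edge moved by at least 100 bp (16) and blue points both (3). The red points lie along the axes, with 1 coordinate between −3 and 22 bp.

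By this limit 45 loci kept both edges, 16 moved 1 edge and 3 moved both. The loci with both edges kept were narrow at both times, with a median width of 152 bp at 9 h and 156 bp at 18 h. Where 1 edge moved, the median width was 1157 bp at 9 h and 2252 bp at 18 h. These sites were thus long already at 9 h: 14 of the 16 exceeded 500 bp then, against 37.5% of all shared loci. The moved edge lay a median of 991 bp farther out (117 to 2913 bp) and the other edge a median of 10.5 bp (−3 to 22 bp). The left edge moved at 7 loci and the right edge at 9.

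Each of the 16 one-sided loci had another 18 h peak close beyond the edge that kept its place. The gap to it was 370 bp in the median and ran from 148 to 1594 bp. Beyond the moved edge an 18 h peak stood within 2 kb at 1 of 16. Among all shared loci 45.3% had an 18 h peak within 2 kb on either side, and among all 18 h peaks 41.9% did. At the loci with both edges kept the count was 13 of 45, and at those with both moved 0 of 3. The neighbour was itself listed at 9 h in 6 cases and at 18 h only in 10. A neighbour bounds how far an edge can move before the peaks join, so the kept edge and the gap are not independent measures. The classes and the 2 kb limit were set after seeing the data. With peaks under 1 kb apart merged, which closes most of these gaps, 2 loci moved 1 edge and 19 moved both, so the one-sided form belongs to the single peaks and not to the merged pair.

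Gdf3 had the widest peak of both lists. At 9 h it ran over 3554 bp (chromosome 6, 122616002 to 122619555) and at 18 h over 6317 bp, with the right edge 2763 bp farther out and the left edge at the same base. On the left, after a gap of 621 bp, an 18 h-only peak of 2872 bp began (122612509 to 122615380, 32.7-fold). The summit of the shared peak stood 226 bp from the kept edge at 9 h and 189 bp at 18 h, and that of the neighbour 83 bp from its facing edge. The pair therefore had its 2 summits at the inner ends and its long flanks outward.

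The pair beside Gp9, the gene of a platelet membrane glycoprotein, was listed on both sides at 9 h and lengthened on both outer sides. The left peak grew from 1974 bp (chromosome 6, 87773325 to 87775298) to 3382 bp, by 1400 bp at its left edge and 8 bp at its right. The right peak grew from 1043 bp (87775680 to 87776722) to 3815 bp, by 3 bp at its left edge and 2769 bp at its right. In doing so it came to cover the Gp9 window printed above. That window stands at a start farther into the gene. The annotated gene body itself began 376 bp from the 9 h summit, already inside the 9 h peak. The gap between the 18 h peaks was 370 bp. Gata4, which encodes a transcription factor of heart and endoderm, had a pair of the same form across a gap of 280 bp. Its left peak widened from 2311 to 3265 bp, 946 bp of it at the left edge, and its right peak from 1193 to 2762 bp, 1557 bp of it at the right edge. Since both peaks of these pairs are among the 16, the loci of a pair count each other as neighbours.

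Near Klf15, a zinc finger factor of metabolism, 9 h showed 3 peaks and 18 h showed 5 within 8.70 kb. The rightmost widened from 2183 bp (chromosome 6, 90518726 to 90520908) to 3936 bp, 1743 bp of it at the right edge, across a gap of 148 bp from a narrow neighbour. That neighbour was 152 bp wide at 9 h and 161 bp at 18 h, and the shared peak to its left 189 and 194 bp. At the left end an 18 h-only peak of 3229 bp (90513950 to 90517178, 30.9-fold) had its summit 82 bp from the edge that faced the others. Long peaks thus closed the row at both ends, with the narrow ones between them.

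Of the other one-sided loci, 8 are given here. They were named because they belong to the class, after their values were seen. Stam2, which codes for an endosomal sorting adaptor, moved its left edge by 1141 bp (1055 to 2212 bp wide), and Ptgr2, the gene of a prostaglandin reductase, its left edge by 681 bp (1600 to 2292 bp). Near Cd24a, which encodes a cell surface glycoprotein, the right edge moved 465 bp, and near Slit3, the gene of a secreted guidance protein, 380 bp. Shifts of 293 bp at Cldn34-ps, 242 bp near Adgrl1 (an adhesion receptor gene), 210 bp near Zmat1 and 117 bp near Nfe2l2 (the NRF2 oxidative stress factor) were the smallest of the class. Zmat1 was the locus with an 18 h peak also beyond its moved edge, after 173 bp.

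**Figure D2:**
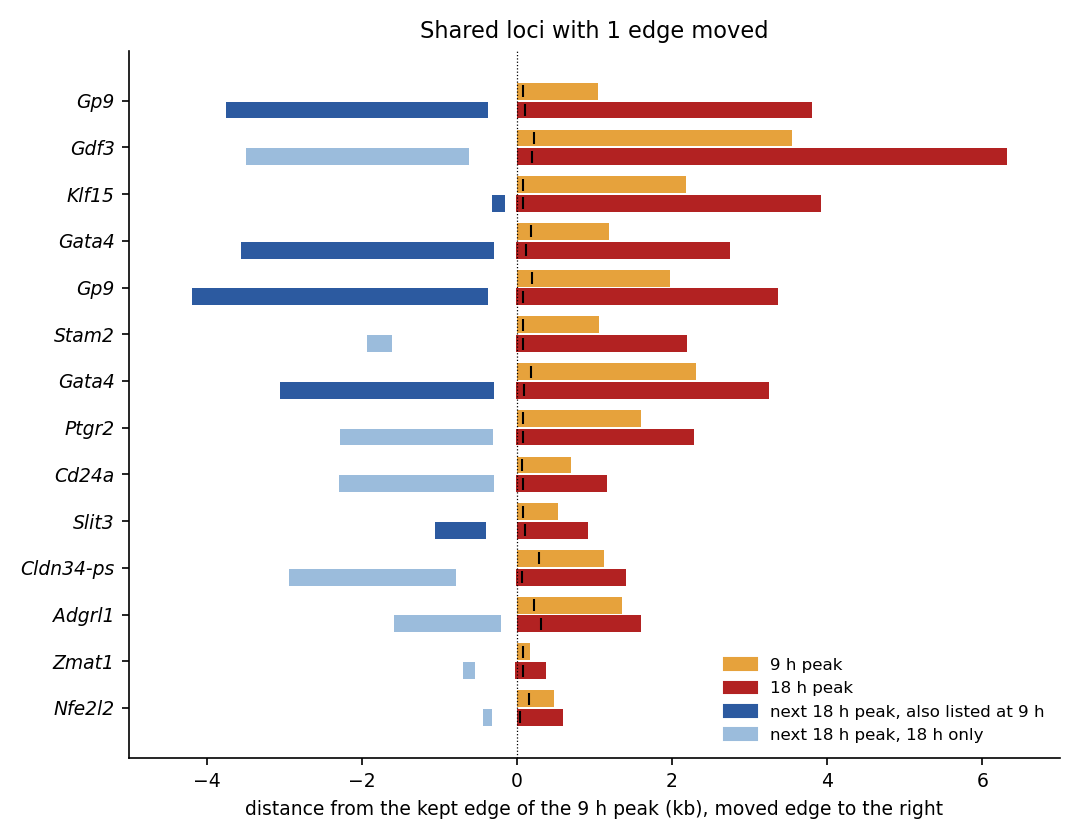
Shared loci with 1 edge moved, each turned so that the moved edge points right, with distance from the kept edge of the 9 h peak in kb. The map shows 14 of the 16 loci, with 9 h peaks in orange, 18 h peaks in red, the nearest 18 h peak beyond the kept edge in dark blue (also listed at 9 h) or light blue (18 h only), and summits as black ticks. Red bars pass orange bars on the right only, and the summits stand near 0.

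Summits of these loci lay at the kept side. In 16 of 16 the summit was nearer to the kept edge than to the moved one, at 9 h and again at 18 h. Its median distance from that edge was 86 bp at 9 h (69 to 283 bp) and 94.5 bp at 18 h (49 to 313 bp), and at 18 h it was within 250 bp in 15 of 16. The kept edges also recurred in the lists of other treatments. ATRi listed 14 of the 16 loci, with the kept edge within 100 bp of its 9 h place in 14 and a median distance of 7 bp (1 to 36 bp). In 14 of 14 its outer edge ended short of the ATRi+APH 18 h edge, and in 8 short of the 9 h edge. At Gdf3, for example, the ATRi peak had its kept edge 6 bp farther out and its other edge at −1066 bp on the outward scale, short of the 9 h edge. ATRi+shTIM listed 13, with the kept edge within 100 bp in 12 and a median distance of 44 bp (5 to 325 bp, the highest at Klf15). Its outer edge fell short of the 18 h edge in 12 of 13 and of the 9 h edge in 10. These lists end at −log10 p of 29.9 and 10.7, and their depths are unknown. The loci were picked for an 18 h edge at least 100 bp farther out, which favours a shortfall from that edge. Loci of the other classes were not compared in this way.

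Both edges moved at 3 loci. Near Rnf145, an E3 ubiquitin ligase gene, the peak widened from 3204 bp (chromosome 11, 44500954 to 44504157) to 5368 bp, by 670 bp on the left and 1494 bp on the right. In Smo, the gene of the Hedgehog signal transducer, it widened from 1509 to 1930 bp, by 261 and 160 bp. At the other extreme, 19 of the 64 loci were narrower at 18 h, by at most 22 bp. That difference was reached in the predicted gene on chromosome 4 and 3016 bp from Taar6, a trace amine receptor gene, and was followed by Pik3r6 (18 bp, −18), Ccdc66 and Hspb8 (15 bp each, −15). Ripor2 tied with the last of these (15 bp, −15) but was outside the 5 that the naming rule takes. Over all 64 the median width difference was 15 bp (order-statistic 95% interval 5 to 44 bp).

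Over all shared loci the summit shifted little. Its median absolute shift was 6 bp (95% interval 4 to 11 bp), with 40 of 64 within 10 bp, 56 within 50 bp and 5 at the same base. Shifts of at least 100 bp occurred at 6 loci. The greatest, 445 bp, was near Zfp825, a zinc finger gene, where the single 9 h peak (chromosome 13, 74528946 to 74530173) was split at 18 h into peaks of 1022 and 110 bp and the narrower had the higher fold. The 445 bp follows from taking the summit of that narrower peak, since the summit of the wider one stood 3 bp from the 9 h summit. Smo followed with a shift of 348 bp to the left (−348), then Cldn34-ps with 213 bp, Nfe2l2 with 113 bp to the left (−113) and the left Gp9 peak with 107 bp. The median shift was 34.5 bp (95% interval 3 to 100 bp) at the 16 loci with 1 edge moved, with 6 within 10 bp and 4 at 100 bp or more, and 5 bp (3 to 8 bp) at the 45 with both edges kept, with 33 within 10 bp and 1 at 100 bp or more, and the intervals overlapped. Among the one-sided loci the shift ran from 0 bp at Ptgr2 to 213 bp at Cldn34-ps.

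Ranks of fold were compared among the same 64 loci, with rank 1 the highest. They went up at 32 loci, 50% of all, down at 29 and were equal at 3. Across loci the folds of the 2 lists had a Spearman's rho of 0.61 and the −log10 p a rho of 0.30, given as a description over 64 loci that share their libraries within a time. Of the 16 loci with 1 edge moved, 13 went up and 2 down, with a median of 8 places up (95% interval 2 to 21). Of the 45 with both edges kept, 16 went up and 27 down, with a median of 3 down (−3, interval −7 to 1). The 3 with both edges moved went up. Ranked by −log10 p, 28 of the 64 loci went up (43.8%). These were 16 of 16 with 1 edge moved, 10 of 45 with both kept and 2 of 3 with both moved, Smo going down by 10 places (−10). Of the 45 with kept edges, 34 went down. A fold at the summit and the reach of a peak come from the same reads, so the rank and the edge class are not independent.

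**Figure D3:**
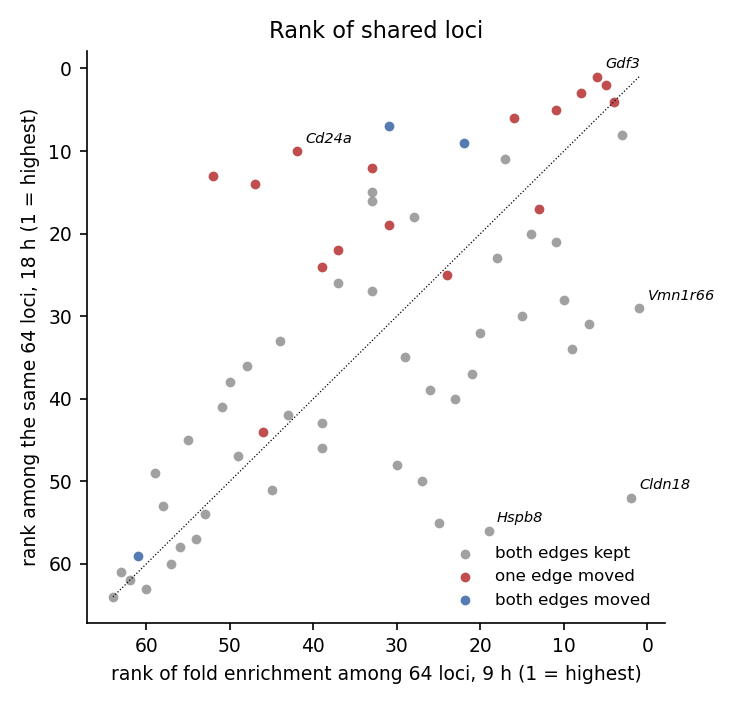
Rank of fold enrichment among the 64 shared loci at 9 h (horizontal axis) and 18 h (vertical axis), 1 being the highest and at the right or top, with the dotted line marking equal rank. Red points (1 edge moved) lie above the line in 13 of 16 cases, and grey points (both edges kept) below it in 27 of 45.

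The 5 largest climbs were at loci with at least 1 edge moved, and 4 of them are given here. The right Gp9 peak went from rank 52 to 13, its fold within each list being 12.4 at 9 h and 31.5 at 18 h. The right Gata4 peak went from rank 47 to 14, Cd24a from 42 to 10 and Cldn34-ps from 33 to 12. Gdf3 went from rank 6 to 1 and Rnf145 from 22 to 9. The 5 largest falls were at loci with both edges kept by the 100 bp limit. Bcas3, one of them, was close to that limit, with edges 94 and 62 bp farther out (557 to 713 bp wide). Cldn18 fell from rank 2 to 52 (50 places, −50), and its fold in each list was 41.4 at 9 h and 6.70 at 18 h. Hspb8, the gene of a small heat shock protein, fell from rank 19 to 56, Bcas3 from 25 to 55 and Vmn1r66 from 1 to 29. The predicted gene on chromosome 4 fell from 9 to 34. Spon1, 149 bp wide at 18 h, went down from rank 3 to 8. Not all narrow peaks fell, since the narrow Klf15 peak at 90518410 went from rank 33 to 15.

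Sites listed at 18 h only numbered 262. Their median fold was 9.44 (95% interval 8.75 to 10.1), against 14.0 (10.7 to 17.9) for the 65 peaks of the same list that overlapped the 9 h list. Their median width was 282.5 bp (243 to 338 bp), against 220 bp (161 to 602 bp). A −log10 p at or above the 9 h limit was reached by 122 of the 262 and by 57 of the 65. The median fold of the 122 was 12.4. Of the 262, 48 were wider than 1 kb, where the whole list had 66 (20.2%).

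**Figure D4:**
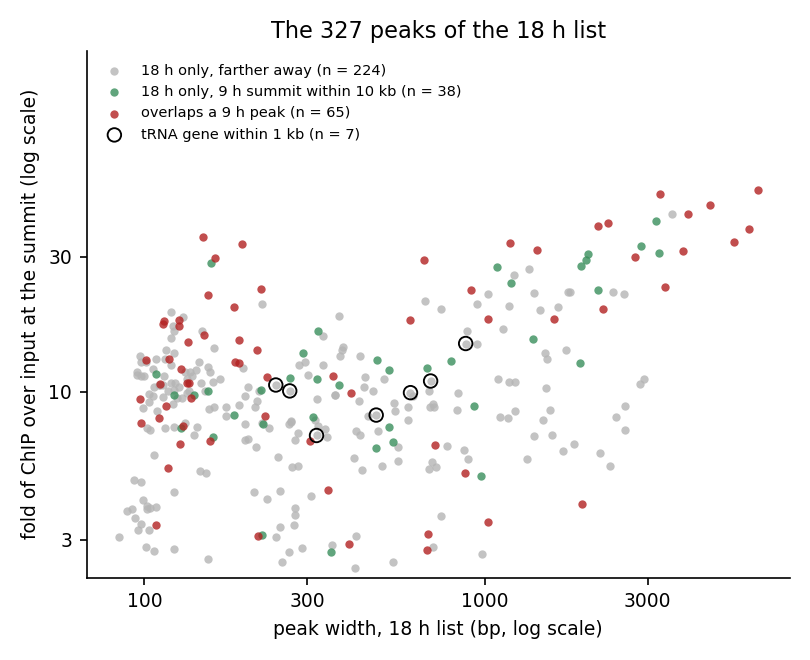
Width (horizontal axis, bp, log scale) and fold of ChIP over input at the summit (vertical axis, log scale) of the 327 peaks at 18 h. Peaks that overlap a 9 h peak are red (65), 18 h-only peaks with a 9 h summit within 10 kb green (38), those farther away grey (224), and 7 peaks within 1 kb of a tRNA gene are ringed. Red and green points fill most of the upper right, and the ringed points lie between 7.0-fold and 14.8-fold.

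Other treatments listed the 2 kinds to different extents. ATRi+shTIM overlapped 104 of the 262 18 h-only peaks (39.7%, 95% interval 33.7 to 45.9%) and 62 of the 65 shared ones (95.4%, 87.1 to 99%), with 50.8% for the whole list. ATRi overlapped 19 of 262 (7.25%, 4.42 to 11.1%) and 35 of 65 (53.8%, 41.0 to 66.3%), with 16.5% for the whole list. DMSO overlapped 7 and APH 1 of the 262. In no other list were 147 of the 262 and 0 of the 65. The higher folds of the shared peaks stand beside these shares, and the part of fold in them was not tested.

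Few of the later sites stood next to an early one. A 9 h summit within 10 kb was found for 38 of 262 (14.5%, 95% interval 10.5 to 19.4%), and 224 lay farther away, 30 of them on chromosomes with no 9 h peak. The median fold was 11.4 (95% interval 9.72 to 13.7) for those 38 and 8.99 (8.27 to 9.81) for the 224. Of the 38, 10 faced the kept edge of a one-sided locus, with a median width of 1682.5 bp, and the other 28 had a median of 363 bp. Among the 28, 7 stood at the start of chromosome 10 and 7 near Zmat1. With neighbours merged, 3.11% of the 18 h-only sites were that close.

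The strongest 18 h-only peak lay away from any early site, in Urgcp, which encodes a regulator of cell growth (chromosome 11, 5740330 to 5743870, 42.3-fold, 3541 bp). It covered the whole promoter window of the gene and was listed in ATRi and ATRi+shTIM too. Most of the others in the top 10 were the second peak of an early locus, near Gdf3 (32.7-fold), Klf15 (30.9-fold and 28.5-fold), Cd24a (chromosome 10, 43560888 to 43562888, 30.5-fold), Ptgr2 (chromosome 12, 84283138 to 84285121, 29.2-fold) and Fam136a (chromosome 6, 86329936 to 86331842, 27.7-fold). The Ptgr2 peak reached 76 bases into the promoter window of the gene. A peak in Prkdc, the gene of the DNA-dependent protein kinase that acts in the joining of broken ends, reached 27.2-fold (chromosome 16, 15671718 to 15673067). It had no 9 h peak on its chromosome and had an 18 h-only neighbour of 373 bp at a gap of 468 bp, with its summit 76 bp from the edge facing that neighbour.

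This off-centre form was also seen among wide 18 h-only peaks, some of which are the neighbours of one-sided loci. Of the 48 wider than 1 kb, 29 had another 18 h peak within 2 kb. In 26 of these 29 the summit was nearer to the edge facing the nearest 18 h peak than to the other edge (89.7%, 95% interval 72.6 to 97.8%), at a median of 83 bp from the facing edge, and in 23 it was within 250 bp. Among the 19 with none within 2 kb, the summit was nearer to the facing edge in 13 (68.4%, 43.4 to 87.4%), at a median of 913 bp, and within 250 bp in 4. The 4 include peaks just past the 2 kb limit, a pair near Cyp8b1 (gap 2324 bp) and a peak near Cdyl2 (gap 2710 bp). Elsewhere the nearest 18 h peak could be far off, 25418887 bp near Dpp10 for example, so the facing edge has little meaning there. Urgcp was also among the 19, with its summit 2597 bp from the facing edge and 943 bp from the other. The comparison was made after seeing the one-sided loci and has no replicate. Some of the 29, such as those near Gdf3 and Ptgr2, are the other peak of a one-sided locus. Others among the 29 are neighbours of each other. These peaks are thus not independent, and the interval does not allow for that.

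**Figure D5:**
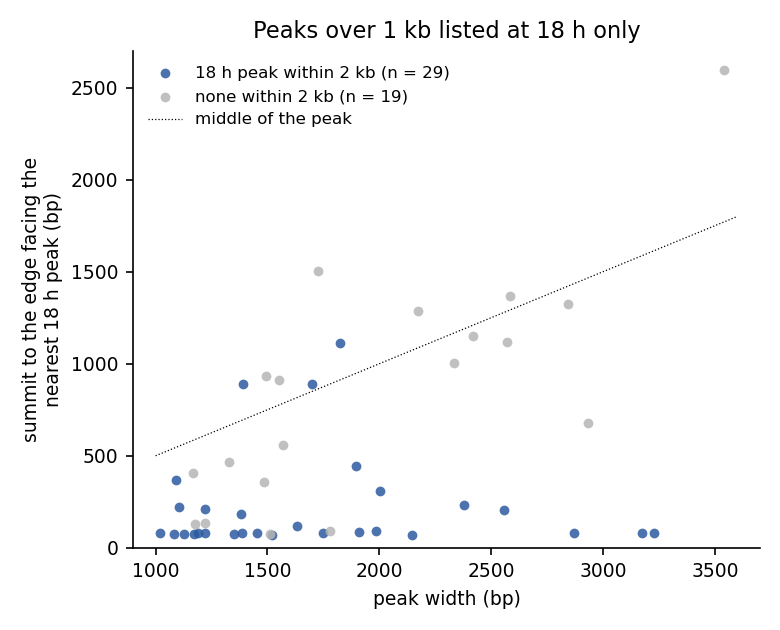
Width of the 48 18 h-only peaks over 1 kb (horizontal axis, bp) and distance of the summit from the edge facing the nearest 18 h peak (vertical axis, bp), with the dotted line at the middle of the peak. Blue points have an 18 h peak within 2 kb (29) and lie mostly at the bottom, with a median of 83 bp, and grey points (19) have none and a median of 913 bp.

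A few of the later sites lay at transfer RNA genes. A tRNA gene lay within 1 kb of 7 peaks of the 18 h list (2.14%), all listed at 18 h only, and of 0 of the 65 peaks at 9 h. In 7 of 7 the summit was inside a tRNA gene. The strongest, 14.8-fold and 877 bp wide (chromosome 7, 79466281 to 79467157), lay in Polg, the gene of the mitochondrial DNA polymerase, over the tRNA gene n-TRtcg5, and its start is in the Polg window printed above. Others stood at n-TLtag1 (10.9-fold), at n-THgtg4 and n-THgtg5 near Shf (10.6-fold and 7.0-fold), and at 3 tRNA genes on chromosome 13: n-TLaag7 near Trim27 (9.92-fold), n-TVaac2 near Abt1 (8.27-fold) and n-TGgcc6 near the histone gene H4c8 (10.1-fold). ATRi listed 3 of the 7 and ATRi+shTIM 0. Only 2 of the 7 reached the lowest −log10 p of the 9 h list, and the other 5 lay below it. The rule that ended each list is not known, and the part of this limit in their absence at 9 h was not tested. tRNA genes are near-identical copies, so these values are uncertain where reads were shared between copies.

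Positions relative to genes were compared next. The summit was in a protein-coding gene in 15 of 65 shared 18 h peaks (23.1%, 95% interval 13.5 to 35.2%) and in 81 of 262 18 h-only peaks (30.9%, 25.4 to 36.9%), with 29.4% for the whole list, and the intervals overlapped. Counting all annotated genes, non-coding ones included, the shares were 44.6% and 45.0%. The nearest protein-coding gene was over 50 kb away for 10 of 65 shared peaks (15.4%, 95% interval 7.63 to 26.5%). For 18 h-only peaks it was so in 83 of 262 (31.7%, 26.1 to 37.7%), and the whole list had 28.4%. Among the 83 were the 23 peaks at the end of chromosome X and the 8 at the start of chromosome 9 described below. Peaks of such a group are not independent, and the intervals do not allow for that. Of 20 genes of common fragile sites, such as Fhit and Wwox, 0 held a summit at either time. Of 10 long neural genes 1 did, Ntm, which codes for a neuronal adhesion molecule, at 18 h only. Of 15 replication fork and checkpoint genes, Atr and Timeless among them, 0 did. For scale, 96 summits of the 18 h list lay in any of the 21887 protein-coding genes, a count that takes no account of gene length. Lists this short can hold few or none of them, so neither a lack nor an excess can be read from these counts.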

How the data were processed

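RPA ChIP-seq of MEFs treated with ATRi and APH was read from 2 of the 6 deposited peak lists, on mm10 per the labels. Chromatin was sheared to under 4 kb and RPA32 complexes were precipitated, per the labels' protocols. Tools listed in the submitters' processing notes are MACS2 2.1.0, STAR 2.5.2a, Picard 1.141, SAMtools 0.1.19 and bcl2fastq 2.17.1.14, without role or settings. The authors deposited per peak the ChIP to input ratio at the summit (the fold used here), a −log10 p and −log10 q, a score and a summit position. In the deposited lists the score equalled 10 times the −log10 p within 1 unit in every peak, so it was not used. Numbers in the peak names reach 2594 at 9 h and 9791 at 18 h, and their meaning is not given in the sources used here.

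Scripts (Python 3.11.15, pandas 2.3.3, numpy 2.4.6, scipy 1.17.1) paired peaks by at least 1 bp, joined them into loci, and measured edges, summits and ranks. They were tested on simulated data. A locus with several peaks took the highest fold and its summit. Genes were RefSeq gene bodies on GRCm38.p6 (49943 genes, 21887 protein-coding), without exons, and no genome sequence was used. Coordinates are 1-based. No test across replicates was possible because each list pools its libraries. Intervals are exact Clopper-Pearson or order-statistic at 95%.

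Peaks are named by the protein-coding gene that holds the summit or lies nearest. The rule takes the 10 highest folds at 9 h and at 18 h only, the 10 largest width gains, the 5 narrower by most, the 5 largest summit shifts, the 5 largest rank changes each way, 9 h peaks with no 18 h peak, members of 3 gene lists and tRNA genes within 1 kb. Predicted genes are not named, except Gm40237, chosen after its values were seen, and 3 named loci are left unreported here, though they stay in all counts. Members and lists were chosen with earlier results of these data known. The limits of 10, 20, 50 and 250 bp, the edge classes, the 2 kb limit, the facing-edge comparison and the groups at chromosome ends were chosen after seeing the data.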

Additional observations from a re-analysis of the deposited data

How the results depend on the processing

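Of 64 alternatives to 20 results, 49 stayed within the interval, or within 1.5 times the count, of the value reported, and 15 moved. Reversal of a result was not scored. Of the 64, 49 had been planned. With 18 h peaks held to the lowest −log10 p of the 9 h list, 87.7% of 9 h peaks overlapped an 18 h peak and 122 peaks were 18 h only, with a median fold of 12.4 and a median width of 374.5 bp. With peaks under 1 kb apart merged, 2 loci moved 1 edge, 19 moved both, and 3.11% of 18 h-only sites had a 9 h summit within 10 kb. An edge limit of 500 bp left 10 loci with 1 edge moved. At 50, 200 and 500 bp, 88.9%, 93.8% and 100% of the one-sided loci had an 18 h peak within 2 kb of the kept edge, and the 2 kb limit itself was not varied. A 1 kb limit gave 8.02% of 18 h-only peaks near a 9 h peak. All annotated genes held 43.1% of 9 h summits, 44.6% of shared and 45.0% of 18 h-only summits. Counted within 1 kb, 14.5% of 18 h-only peaks were in the ATRi list and 48.1% in ATRi+shTIM, and with 50% coverage 33.6% were in ATRi+shTIM. These moves follow from fewer or joined peaks, another limit or another gene set. The alternatives with other edge limits, and those run on the edge classes, were chosen after seeing the data. No paired analysis was possible because each list pools its libraries, and for the same reason no library could be left out.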

Other observations

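Groups of neighbouring 18 h-only peaks stood near chromosome ends, a grouping made after seeing the data. On chromosome X, 23 peaks, all 18 h only, lay between 170731958 and 170857956, a span of 126 kb with 0 peaks at 9 h. Their folds ran from 5.30 to 16.4 with a median of 9.15, close to the 9.44 of all 18 h-only peaks. ATRi+shTIM listed 18 of the 23, ATRi 1 and DMSO 0. Of all 18 h-only peaks ATRi+shTIM listed 39.7%, ATRi 7.25%, DMSO 2.67% and APH 0.382%. Close to the first assembled bases of chromosome 9, 8 peaks, also 18 h only, lay between 3001233 and 3038242. They were weak, at 2.56-fold to 3.33-fold, and DMSO listed 6 of them, APH 1, and ATRi and ATRi+shTIM 0. On chromosome 10, 9 peaks, of which 2 had a 9 h peak, lay within 7.05 kb between 3110111 and 3117163, with folds of 6.31 to 16.4. ATRi+shTIM listed 9 of the 9, ATRi 6 and DMSO 0, against 50.8%, 16.5% and 2.75% of the whole 18 h list.

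Near Zfp825, on chromosome 13, 6 peaks lay within 2.71 kb at 18 h, with folds of 3.39 to 11.3, and ATRi+shTIM listed all 6. Near Zmat1, 9 peaks lay within 14.5 kb, 8 of them 18 h only, with folds of 5.03 to 12.9, and 5 were in ATRi+shTIM. Folds in both groups were lower than the 28.5 to 42.4 of the 5 peaks near Klf15 in the same list, 3 of which were in ATRi and 5 in ATRi+shTIM. Of the whole 18 h list 16.5% were in ATRi and 50.8% in ATRi+shTIM.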
